A study of Cuscuta campestris with 9 samples.

Results

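The RNAs described here are the precursors of glycine transfer RNA (tRNA) in host-free haustoria of Cuscuta campestris (dodder), a parasitic plant. They comprise every listed pre-tRNA whose gene name carries a glycine anticodon: 49 genes with 236 genomic intervals, out of 496 pre-tRNA genes with 2315 intervals and 716 loci with 2535 intervals in the whole table. The anticodons were GCC, with 25 genes and 109 intervals, CCC, with 11 genes and 85 intervals, and TCC, with 13 genes and 42 intervals. The genes lay on 32 scaffolds, and an interval is the span of an RNA sequenced from end to end, so each gene can have several.

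The plants were the wild-type strain Dotti, grown on beets. Haustoria, the organs by which dodder enters its host, were induced on cut shoot tips without any host by far-red light and pressure over 4 days, and 3 numbered RNA samples were taken from them. Each RNA sample was split into a portion treated with RppH, a portion treated with decapping enzyme (Dcp) and an untreated portion, which gave 9 libraries, 3 per treatment. Libraries with the same number share an RNA sample. Nothing in the labels tells if separate plants lay behind the 3 RNA samples, so the p-values below reflect the spread among libraries and no more. The table lists short RNA classes, which hold no markers against which the tissue label could be checked.

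A pre-tRNA is transcribed by RNA polymerase III and starts with a triphosphate. RNase P then cuts off the 5′ leader, which leaves a monophosphate, RNase Z cuts off the 3′ trailer, and the CCA end is added. Glycine codons are read by tRNAs with a GCC anticodon, which also pair by wobble with the codon ending in U, by tRNAs with a CCC anticodon and by tRNAs with a TCC anticodon. Library ligation required a 5′ monophosphate: RppH can trim both triphosphates and caps to that end, whereas Dcp acts on caps. The submitters therefore read an RNA gained after both enzymes as probably capped, and an RNA gained after RppH alone as probably ending in a triphosphate.

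Values are raw counts of full-length RNAs, or TPM, which in this table is the count divided by a library total and not by length. Library totals ran from 24974484 to 46034864, so that 1 count was worth 0.0217 to 0.04 TPM. Glycine pre-tRNAs held 382, 259 and 554 counts in the RppH libraries 1, 2 and 3, then 40, 48 and 17 in the Dcp libraries and 29, 28 and 18 in the untreated libraries. The untreated counts were also few in kind: they fell on 9, 7 and 4 intervals, against 104, 81 and 116 intervals in the RppH libraries and 33, 19 and 7 in the Dcp libraries. Counts have no molecular identifiers, so duplicate reads cannot be told from separate molecules. Counting intervals treat each count as independent, so they can be too narrow, and they leave out the spread among libraries. The sources used here give no rule for reads that match several near-identical copies, and every value for a single gene copy is uncertain to that extent.

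Glycine pre-tRNAs were far more abundant after RppH than after Dcp or without enzyme. Their summed level was 13.9, 10.4 and 16.6 TPM in the RppH libraries, 1.56, 1.18 and 0.586 TPM in the Dcp libraries, and 0.702, 0.608 and 0.681 TPM in the untreated libraries. All RppH libraries lay above all others, and the Dcp and untreated ranges overlapped. The means were 13.6 ± 3.13 TPM after RppH, 1.11 ± 0.490 TPM after Dcp and 0.664 ± 0.049 TPM without enzyme (SD, n = 3 each). The pooled counts gave a rate 21.1 times the untreated rate after RppH (exact 95% counting interval 16.7 to 27.1) and 1.67 times the untreated rate after Dcp (1.23 to 2.27). The exact two-sided permutation p was 0.1 for RppH against untreated, 0.1 for RppH against Dcp and 0.4 for Dcp against untreated, where 2 of 3 RNA samples were higher after Dcp. With 3 libraries against 3 this test cannot go below 0.1, and over the 27 library-level tests made the smallest Benjamini-Hochberg adjusted value was 0.159.

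The gene names gave 22 pre-tRNA classes, with initiator methionine (iMet) apart from methionine and a class named Sup. Among these, glycine had the most genes and ranked 6 by mean level in the RppH libraries. Among the 20 classes with untreated counts it ranked 15 by the ratio of RppH to untreated means and 17 by the ratio of Dcp to untreated means. Its share of all pre-tRNA counts was 5.78%, 6.00% and 5.71% in the RppH libraries, 3.42%, 3.55% and 2.06% in the Dcp libraries, and 3.21%, 4.64% and 3.10% in the untreated libraries. The RppH shares lay above those of both other groups in all libraries (exact permutation p = 0.1 for each, the smallest possible). The Dcp and untreated shares overlapped (exact permutation p = 0.6). The order of the shares depended on alanine pre-tRNAs, which made up 25.2% of pre-tRNA counts in the RppH libraries, 51.9% in the Dcp libraries and 65.3% in the untreated libraries on average. Among alanine genes, tRNA14-AlaTGC on scaffold 16 held 7629 counts over all libraries, and the next, tRNA17-AlaAGC on scaffold 77, held 249. The glycine share without that first gene alone was not computed. In a comparison chosen after seeing the data, which left out alanine, the glycine share was 7.83%, 7.62% and 7.97% in the RppH libraries, 6.06%, 6.56% and 6.07% in the Dcp libraries, and 9.32%, 11.3% and 10.8% in the untreated libraries. The RppH shares then lay below every untreated share and above every Dcp share (exact permutation p = 0.1 for each pair).

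For CCC pre-tRNAs all 3 treatments stood apart, while for GCC and TCC pre-tRNAs RppH stood apart from the other two. GCC pre-tRNAs had 5.10, 4.97 and 4.44 TPM in the RppH libraries, 0.857, 0.073 and 0.103 TPM in the Dcp libraries, and 0.363, 0.261 and 0.114 TPM in the untreated libraries. The GCC level after Dcp rested on RNA sample 1, and without that sample the Dcp mean minus the untreated mean was -0.0987 TPM. CCC pre-tRNAs had 5.39, 3.44 and 7.67 TPM after RppH, 0.351, 0.588 and 0.207 TPM after Dcp, and 0.048, 0.043 and 0 TPM without enzyme. For CCC the 3 treatments did not overlap, in the order RppH, Dcp, untreated (exact permutation p = 0.1 for each pair). TCC pre-tRNAs had 3.42, 1.96 and 4.50 TPM after RppH, 0.351, 0.514 and 0.276 TPM after Dcp, and 0.290, 0.304 and 0.568 TPM without enzyme. For TCC the Dcp and untreated libraries overlapped (exact permutation p = 0.9).

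**Figure D1:**
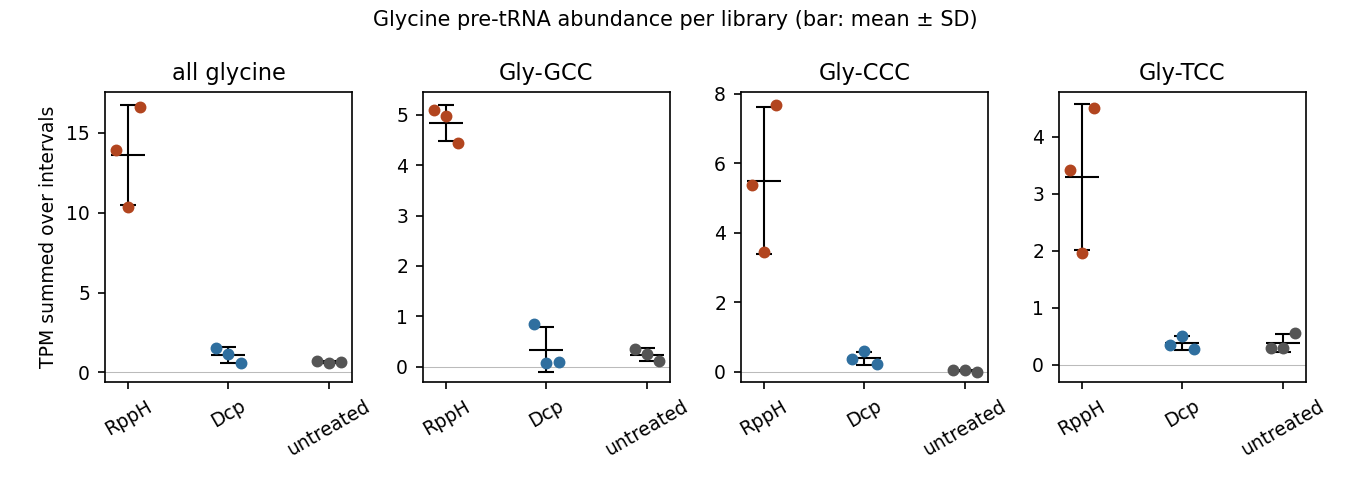
Summed level of glycine pre-tRNAs in TPM (linear y axes that differ between panels) for all genes and for the GCC, CCC and TCC anticodons. Points are the 3 RppH, 3 Dcp and 3 untreated libraries, and bars give the mean ± SD. RppH libraries lie above all others in each panel, and Dcp lies apart from untreated only for CCC, where the untreated libraries hold 4 counts.

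The pooled counts show how thin the untreated side of the CCC comparison is. CCC had 490 counts after RppH, 39 after Dcp and 4 without enzyme. The Dcp rate was thus 11.6 times the untreated rate (exact 95% counting interval 4.19 to 44.8), and the RppH rate was 162 times the untreated rate (63.0 to 599). GCC had 412 counts after RppH, 28 after Dcp and 30 without enzyme, a ratio of 1.11 for Dcp to untreated (0.640 to 1.93) and of 18.2 for RppH to untreated (12.6 to 27.3). TCC had 293, 38 and 41 counts in the same order, a ratio of 1.10 for Dcp to untreated (0.691 to 1.76) and of 9.48 for RppH to untreated (6.82 to 13.5).

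Ratios between anticodons inside a library do not depend on the library total and are the test of whether the anticodons responded differently. They were computed with 0.5 added to each count. The log2 ratio of CCC to TCC was 0.74 ± 0.080 after RppH and -0.07 ± 0.293 after Dcp (SD, n = 3 each), and it was -2.32 and -2.54 in untreated libraries 1 and 2, which held 2 CCC counts each. Untreated library 3 had 0 CCC and 15 TCC counts, so its value is set by the added constant, and with the floor of 3 counts it was at most -2.32. No 2 treatments overlapped in this ratio, also with that library at its bound (exact permutation p = 0.1 for each pair). The log2 ratio of GCC to CCC was -0.11 ± 0.658 after RppH and -0.82 ± 2.03 after Dcp, which overlapped (exact permutation p = 0.6). It was 2.63 and 2.32 in untreated libraries 1 and 2, above every RppH and Dcp library, and no ratio is given for untreated library 3, with 3 GCC and 0 CCC counts. The log2 ratio of GCC to TCC was 0.63 ± 0.677 after RppH, -0.89 ± 1.96 after Dcp and -0.68 ± 1.29 without enzyme, with overlap between every pair of treatments (exact permutation p from 0.2 to 0.9). Within RNA samples, RppH was above untreated in this ratio in 3 of 3 (exact sign-flip permutation p = 0.25, the smallest possible). CCC made up 39.4%, 35.9% and 4.68% of glycine counts on average in the RppH, Dcp and untreated libraries, and TCC made up 23.5%, 37.8% and 58.2%.

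Of the 49 genes, 28 reached 10 counts over all libraries and were tested in edgeR's quasi-likelihood fit over the 354 loci that did so (11 GCC, 10 CCC and 7 TCC). A gene could reach 10 counts through the RppH libraries alone, so the counts of calls support nothing further. Adjusted calls from the main, blocked and rescaled fits are set beside those of all loci, and calls from other settings are not. Most genes named below were picked by their RppH level, so their p-values against the other groups are descriptive too. In RppH against untreated, 25 of the 28 rose and 0 fell, or 10 GCC, 10 CCC and 5 TCC genes, where 91.2% of all tested loci rose (Benjamini-Hochberg adjusted p under 0.05). With the RNA sample as a block in the fit, 13 of 28 rose, against 57.3% of all loci. The count was 14 without RNA sample 1, 13 without RNA sample 3 and 16 without RppH library 3. No share of all loci is given for these leave-outs. In 19 of 28 genes all 3 RppH libraries exceeded all untreated libraries, which held for 73.4% of all loci. The median fitted log2 change was 5.52 for glycine genes and 5.68 for all loci. With the 20 glycine genes that had no untreated count set to their lower bound, the median of the pooled log2 ratios was 3.11, against 3.41 for all loci.

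In Dcp against untreated, edgeR called 0 of 28 glycine genes, against 13.6% of all tested loci and 13 of 239 other pre-tRNA genes. At an unadjusted p under 0.05, edgeR gave 4 glycine genes, 2 GCC and 2 CCC, all higher after Dcp. No share over all loci is set beside that unadjusted count, so it is not read as a glycine result. DESeq2 called 1 gene, tRNA1-GlyCCC on scaffold 111, and limma on log2(TPM + 1) called 0. Leaving out Dcp library 3 gave 2 calls and leaving out untreated library 1 gave 1. Among the snRNA loci, a class the table itself labels as capped, 16 of 18 rose after Dcp.

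In RppH against Dcp, 17 of 28 glycine genes were higher after RppH, or 8 GCC, 6 CCC and 3 TCC genes, where 61.0% of all loci and 160 of 239 other pre-tRNA genes were (edgeR, adjusted p under 0.05). The blocked fit called 6 of 28, against 18.1% of all loci. Without RNA sample 1 the count was 0, with 15 genes at an unadjusted p under 0.05, and it was 11 without RNA sample 2 and 5 without RNA sample 3. It was 9 without Dcp library 2, 7 without Dcp library 3 and 10 without RppH library 3. How the calls over all loci moved in these leave-outs is not given here. The RppH and Dcp libraries did not overlap in 17 of 28 genes, against 63.0% of all loci. Scaling on the listed loci themselves lowered the changes in both comparisons with RppH. In RppH against Dcp, TMM shifted the log2 change of the median locus by -2.10 and left 0 glycine calls, with 8 loci of all classes higher and 11 lower, and median-of-ratios scaling left 0, with 5 loci higher and 12 lower. In RppH against untreated, TMM shifted it by -1.33 and left 2 glycine calls, with 65 loci higher and 8 lower, and median-of-ratios scaling left 1, with 43 loci higher and 9 lower.

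**Figure D2:**
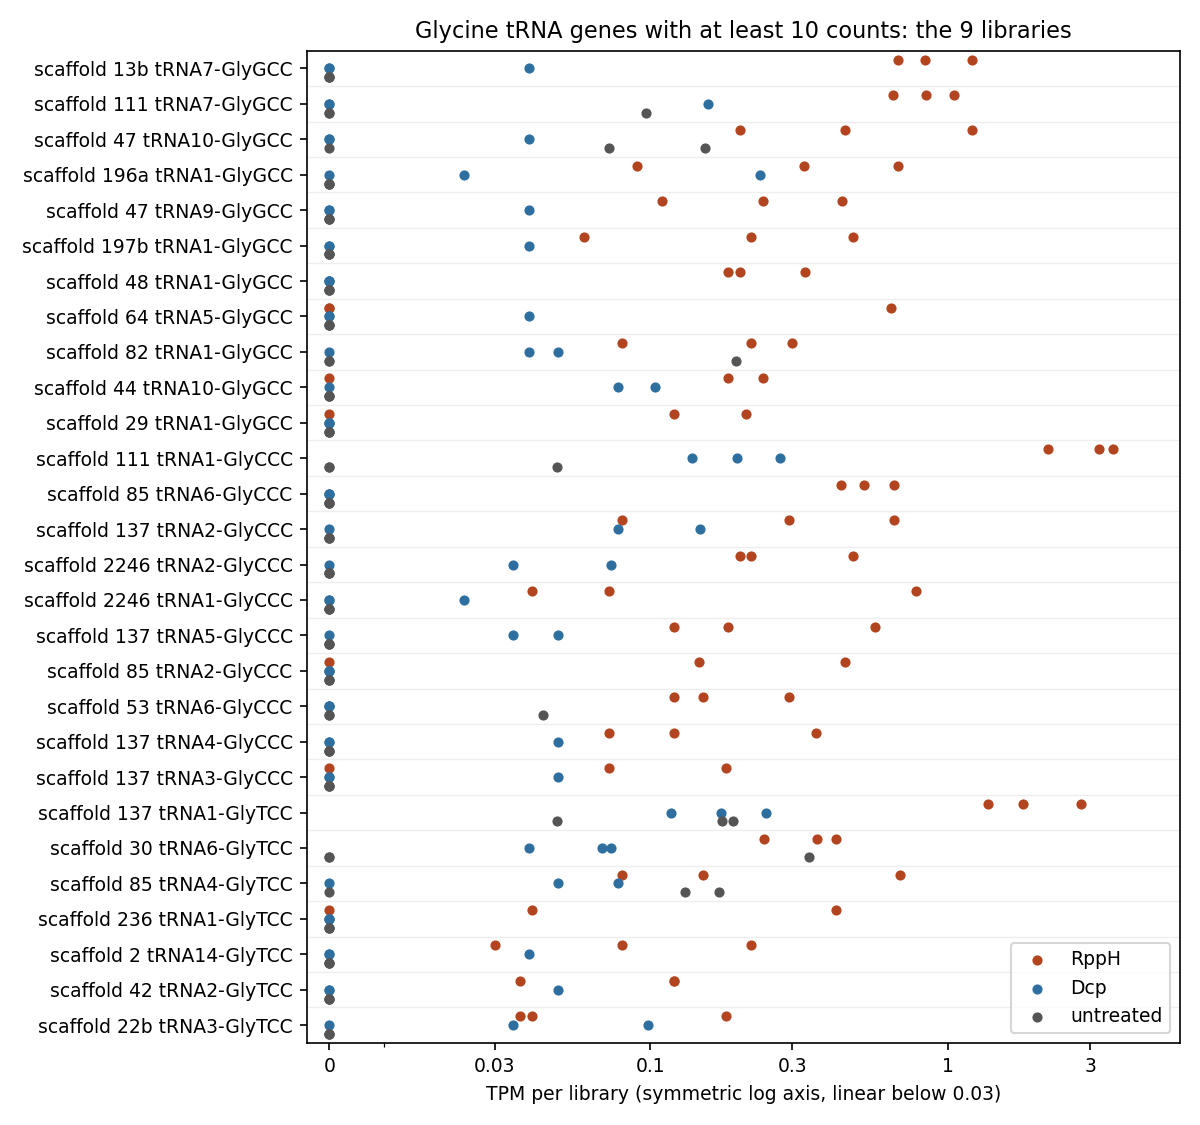
Level of each of the 28 glycine tRNA genes with at least 10 counts, in TPM on a symmetric log axis that is linear below 0.03. Each gene has 3 RppH points, 3 Dcp points and 3 untreated points, from top to bottom within its row. For tRNA1-GlyCCC of scaffold 111 the 3 treatments do not overlap, and 20 of the 28 genes have all untreated points at 0.

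Among the CCC genes 1 copy held most of the molecules. The gene tRNA1-GlyCCC on scaffold 111 had 3.57, 2.16 and 3.21 TPM after RppH, 0.273, 0.196 and 0.138 TPM after Dcp, and 0.0484, 0 and 0 TPM without enzyme. Its 3 treatments did not overlap. It held 259 of the 490 CCC counts in the RppH libraries (52.9%), 19 of 39 in the Dcp libraries (48.7%) and 2 of 4 in the untreated libraries. The rise after RppH over untreated was 7.14 ± 1.24 on the log2 scale (edgeR, SE, adjusted p = 8.11e-07) and passed the threshold in each of the 21 settings run. Its pooled rate after Dcp was 11.3 times the untreated rate (counting interval 2.73 to 100), and the log2 difference of 3.27 missed the threshold in edgeR (adjusted p = 0.0684). Over 21 settings that adjusted p ran from 0.0184 to 1, and 5 settings called it. RppH exceeded Dcp by 3.86 in log2 (adjusted p = 0.00131; 0.0699 without RNA sample 1).

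The next CCC copy, tRNA6-GlyCCC on scaffold 85, had 0.437, 0.521 and 0.659 TPM after RppH and no count after Dcp or without enzyme. Its rate after RppH was at least 20.8-fold higher than without enzyme and at least 17.4-fold higher than after Dcp, taking a floor of 3 counts over a group (edgeR adjusted p = 9.39e-05 and 0.000706, the second 0.0699 without RNA sample 1). All its counts came after RppH, which carried it past the count filter and into the named genes, so these p-values are descriptive. At its total of 47 counts, whether the lack of Dcp counts sets it apart from tRNA1-GlyCCC of scaffold 111 was not tested. In that gene RppH exceeded Dcp 15.2 times (counting interval 9.52 to 25.6), a range that includes the bound of 17.4. The gene tRNA2-GlyCCC on scaffold 137 had 0.291, 0.0801 and 0.659 TPM after RppH, 0.0779, 0.147 and 0 TPM after Dcp, and no untreated count. Its Dcp and RppH values overlapped. After RppH it was at least 14.1-fold higher than without enzyme (adjusted p = 0.000519), and after Dcp at least 3.18-fold higher, which missed the threshold (adjusted p = 0.0797; 0.0494 without Dcp library 3).

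Other CCC copies were lower, and several leaned on RppH library 3. The gene tRNA1-GlyCCC on scaffold 2246 had 2, 1 and 26 counts in the RppH libraries, 0, 1 and 0 in the Dcp libraries and none without enzyme. Its neighbour tRNA2-GlyCCC had 6, 5 and 16 counts after RppH, 0, 3 and 1 after Dcp, and none without enzyme. The copy tRNA5-GlyCCC on scaffold 137 had 5, 3 and 19 counts after RppH, 0, 2 and 1 after Dcp, and none without enzyme. The copy tRNA2-GlyCCC on scaffold 85 had 4, 0 and 15 counts after RppH and none after Dcp or without enzyme. The gene tRNA6-GlyCCC on scaffold 53 had 0.291, 0.12 and 0.15 TPM after RppH, no count after Dcp, and 0, 0.0434 and 0 TPM without enzyme. It was 10.6 times higher after RppH than without enzyme (counting interval 2.49 to 95.1; adjusted p = 0.0435). That call was lost in the blocked fit (adjusted p = 0.177) and when RNA sample 1, RNA sample 3, RppH library 1, RppH library 3, untreated library 1 or untreated library 3 was left out (0.0657 to 0.246), and its sign turned under median-of-ratios scaling. The least abundant CCC gene, tRNA2-GlyCCC on scaffold 40, had 9 counts, all after RppH.

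The GCC molecules were spread over more copies. The leading copy in the RppH libraries, tRNA7-GlyGCC on scaffold 13b, had 1.2, 0.681 and 0.839 TPM after RppH, 0.039, 0 and 0 TPM after Dcp, and no untreated count. It held 78 of 412 GCC counts after RppH (18.9%). Its rate after RppH was at least 34.5-fold higher than without enzyme (edgeR adjusted p = 1.46e-05) and 86.8 times that after Dcp (counting interval 15.1 to 3473; adjusted p = 0.000601, and 0.0699 without RNA sample 1). The gene tRNA7-GlyGCC on scaffold 111 had 0.656, 0.841 and 1.05 TPM after RppH, 0.156, 0 and 0 TPM after Dcp, and 0.0968, 0 and 0 TPM without enzyme. Its 4 Dcp counts and its 4 untreated counts all came from RNA sample 1. RppH exceeded untreated 24.5 times (adjusted p = 0.000769) and Dcp 20.6 times (adjusted p = 0.00549). The difference from Dcp missed the threshold without RNA sample 1, 2 or 3 (adjusted p = 0.0699, 0.0546 and 0.0746).

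The GCC copy with the most untreated counts was tRNA10-GlyGCC on scaffold 47. It had 1.2, 0.2 and 0.45 TPM after RppH, 0.039, 0 and 0 TPM after Dcp, and 0.0726, 0.152 and 0 TPM without enzyme. RppH lay above both other groups, while Dcp lay at or below the untreated library of the same RNA sample in all 3. The rise over untreated was 2.88 ± 1.10 in log2 (edgeR, SE, adjusted p = 0.0121). That call was lost in the blocked fit (adjusted p = 0.115), without RNA sample 1 (0.237), RNA sample 3 (0.0514) or RppH library 1 (0.19), and the sign turned under TMM and median-of-ratios scaling. Against Dcp the RppH rate was 59.0 times higher (counting interval 10.1 to 2374; adjusted p = 0.00174, and 0.0752 without RNA sample 1).

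Further GCC copies showed how far 1 library can carry a value. The gene tRNA5-GlyGCC on scaffold 64 had 0, 0.641 and 0 TPM after RppH, 0.039, 0 and 0 TPM after Dcp, and no untreated count. All its 16 RppH counts were in RppH library 2, yet edgeR called it against untreated (adjusted p = 0.00474; 0.114 with the block; 0.072 without RNA sample 1). That call held in 10 of 20 alternative settings and was lost in the others, among them DESeq2, limma and the fits without RppH library 2 or RNA sample 2. Without RppH library 2 it had no RppH count, and its difference from Dcp (adjusted p = 0.0437) was negative. The gene tRNA1-GlyGCC on scaffold 196a had 0.328, 0.681 and 0.0899 TPM after RppH, 0.234, 0.0245 and 0 TPM after Dcp, and no untreated count. After Dcp it was at least 2.78-fold higher than without enzyme, which missed the threshold (adjusted p = 0.0797). After RppH it was at least 12.8-fold higher than without enzyme (adjusted p = 0.000477). The copies tRNA9-GlyGCC on scaffold 47, tRNA1-GlyGCC on scaffold 197b and tRNA1-GlyGCC on scaffold 48 had 22, 20 and 21 RppH counts, 1, 1 and 0 Dcp counts, and no untreated count.

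The gene tRNA1-GlyGCC on scaffold 82 was the GCC gene not called in RppH against untreated. It had 0.219, 0.0801 and 0.3 TPM after RppH, 0.039, 0.049 and 0 TPM after Dcp, and 0.194, 0 and 0 TPM without enzyme. The groups overlapped, through untreated library 1. The log2 difference was 1.53 (edgeR adjusted p = 0.243), and its sign turned under TMM and median-of-ratios scaling. Without untreated library 1 the gene was called (adjusted p = 0.0175). It then had no untreated count, so the fitted log2 difference of 5.70 is not a measured fold. A further 3 GCC genes had no RppH count. The gene of this anticodon with the lowest mean TPM over all libraries, tRNA3-GlyGCC on scaffold 733, had 2 counts, both in untreated library 2.

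The TCC molecules were again led by 1 copy, which had counts in every untreated library. The gene tRNA1-GlyTCC on scaffold 137 had 1.78, 1.36 and 2.79 TPM after RppH, 0.117, 0.245 and 0.172 TPM after Dcp, and 0.0484, 0.174 and 0.189 TPM without enzyme. The RppH libraries stood apart, and the Dcp and untreated libraries overlapped. It held 176 of 293 TCC counts after RppH (60.1%), 18 of 38 after Dcp and 15 of 41 without enzyme. The rise after RppH over untreated was 3.84 ± 1.01 in log2 (edgeR, SE, adjusted p = 0.000561), a pooled ratio of 15.6 (counting interval 9.18 to 28.4). The pooled ratio of Dcp to untreated was 1.43 (0.680 to 3.05; adjusted p = 0.893), a direction that turned under TMM and median-of-ratios scaling. RppH exceeded Dcp 10.9 times (6.69 to 18.8; adjusted p = 0.00483, and 0.0754 without RNA sample 1).

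Both TCC genes not called in RppH against untreated had most of the remaining untreated counts. The gene tRNA6-GlyTCC on scaffold 30 had 0.364, 0.24 and 0.42 TPM after RppH, 0.039, 0.0735 and 0.0689 TPM after Dcp, and 0, 0 and 0.341 TPM without enzyme. All its 9 untreated counts were in untreated library 3. The log2 difference was 1.73 (edgeR adjusted p = 0.137), and the gene was called without that library (adjusted p = 0.00215). It then had no untreated count, so the fitted log2 difference of 6.54 is not a measured fold. The gene tRNA4-GlyTCC on scaffold 85 had 0.692, 0.0801 and 0.15 TPM after RppH, 0.0779, 0.049 and 0 TPM after Dcp, and 0.169, 0.13 and 0 TPM without enzyme. RppH and untreated overlapped (log2 difference 1.51, adjusted p = 0.188). For both genes the sign turned under TMM and median-of-ratios scaling. RppH exceeded Dcp 7.24 times in tRNA4-GlyTCC (counting interval 2.51 to 28.5; adjusted p = 0.0484). That call was lost in the blocked fit (0.204), without any 1 of the RNA samples, without any 1 of the RppH libraries and without Dcp library 2 or 3 (adjusted p = 0.0531 to 0.475).

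The other TCC copies were scarce. The gene tRNA1-GlyTCC on scaffold 236 had 0, 1 and 14 counts in the RppH libraries and none elsewhere, so it passed the count filter through RppH alone. Its call against untreated (edgeR adjusted p = 0.00903) was lost without RppH library 3 (0.343), RNA sample 3 (0.464) or RNA sample 1 (0.0572) and in the blocked fit (0.175). The copies tRNA14-GlyTCC on scaffold 2, tRNA2-GlyTCC on scaffold 42 and tRNA3-GlyTCC on scaffold 22b had 9, 8 and 8 RppH counts, 1, 2 and 5 Dcp counts, and no untreated count. The TCC gene with the lowest mean TPM over all libraries, tRNA3-GlyTCC on scaffold 35, had 1 count. Over all 49 genes, 46 had a count in some RppH library and 24 in every RppH library, 27 and 3 did so for Dcp, and 13 and 1 for untreated. The gene seen in every untreated library was tRNA1-GlyTCC on scaffold 137.

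Within the RppH libraries the order of the anticodons depended on these leading copies. CCC had 5.50 ± 2.12 TPM, GCC 4.83 ± 0.350 TPM and TCC 3.29 ± 1.27 TPM (SD, n = 3). CCC exceeded TCC in 3 of 3 libraries (exact sign-flip p = 0.25, the smallest that 3 pairs allow). CCC exceeded GCC in 2 of 3 libraries and GCC exceeded TCC in 2 of 3 (exact sign-flip p = 0.75 and 0.5). Without the copy with the most counts of each anticodon, tRNA1-GlyCCC and tRNA7-GlyGCC of scaffold 111 and tRNA1-GlyTCC of scaffold 137, GCC led with 3.98 TPM, followed by CCC with 2.52 TPM and TCC with 1.32 TPM. Per gene, the RppH counts had a median of 27 for CCC, 7 for GCC and 8 for TCC.

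The 5′ ends of the glycine pre-tRNAs were nearly fixed in most genes, though not in all, and the 3′ ends were less fixed. Over all genes and libraries 93.5% of counts began at their gene's most used 5′ base, and 44.8% ended at its most used 3′ base. These ends were chosen from the same counts, so the shares describe the molecules and are not tested. In the 28 genes with at least 10 counts, the median gene had 99.0% of counts at 1 5′ base and 41.4% at 1 3′ base, against 97.4% and 50.0% in the 239 other pre-tRNA genes of that depth. A single 5′ base was seen in 14 of the 28 glycine genes (50.0%) and in 44.4% of the others. The median share at the leading 3′ base was 42.9% for GCC, 35.1% for CCC and 69.2% for TCC genes. Of the few molecules that began elsewhere, 27 counts in 7 genes began 3 bases upstream, 18 counts in 6 genes 1 base downstream and 17 counts in 3 genes 3 bases downstream.

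**Figure D3:**
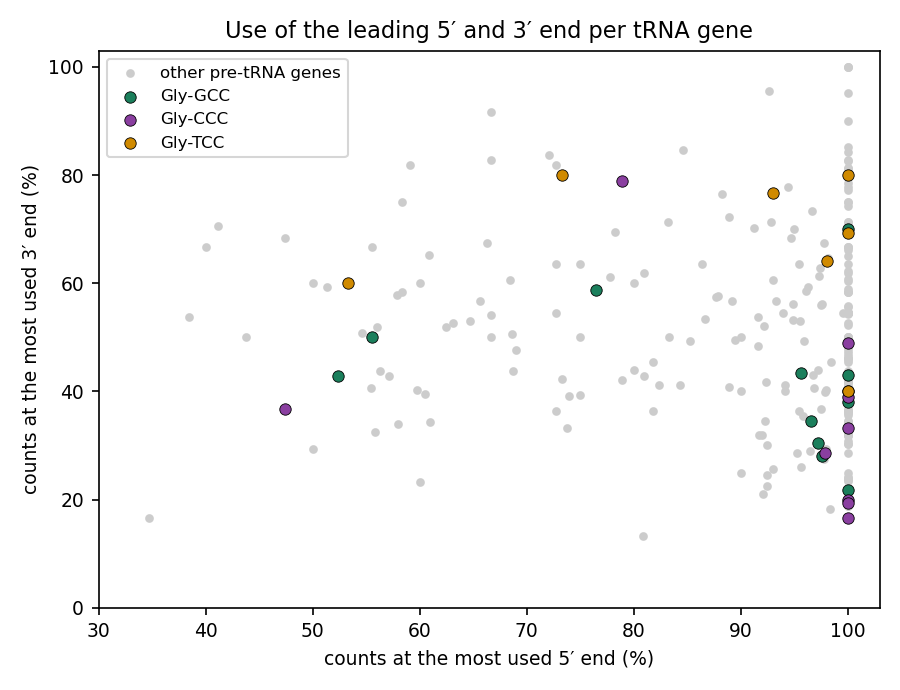
Share of a gene's counts at its most used 5′ end (x axis, %) and at its most used 3′ end (y axis, %), 1 point per tRNA gene with at least 10 counts, all 9 libraries pooled. The 28 glycine genes, coloured by anticodon, lie mostly at the right edge (median 99.0%) with 3′ shares of 16.7% and more, and the grey points are the 239 other pre-tRNA genes.

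The leading copies show this in coordinates of the assembly Ccam0.32, counted from 1. The gene tRNA1-GlyCCC on scaffold 111, plus strand, had 97.9% of its 280 counts starting at base 276918 and 12 different 3′ ends that gave RNAs of 78 to 91 nt. Its leading form ran from 276918 to 277006, which is 89 nt, and held 80 counts. The gene tRNA1-GlyTCC on scaffold 137, plus strand, began at 701279 in 98.1% of 209 counts, and a single 92-nt form ending at 701370 held 133 of them. The gene tRNA7-GlyGCC on scaffold 13b, minus strand, began at 953834 in all 79 counts, with 4 adjacent 3′ ends and lengths of 80 to 83 nt. The gene tRNA10-GlyGCC on scaffold 47, minus strand, began at 1552232 in all 64 counts and had 9 3′ ends, lengths of 72 to 91 nt and 21.9% of counts at the leading one. Several genes had a less fixed start, and those given here were chosen after the values were seen. The lowest share among the 28 was in tRNA4-GlyCCC on scaffold 137, with 47.4% of 19 counts at its leading 5′ base. The share was 52.4% of 21 counts in tRNA1-GlyGCC on scaffold 48 and 53.3% of 15 counts in tRNA1-GlyTCC on scaffold 236. In tRNA10-GlyGCC on scaffold 44 it was 55.6% of 18 counts.

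The share of counts at the leading 5′ base was 93.5% in the RppH libraries, 91.4% in the Dcp libraries and 97.3% in the untreated libraries, pooled over each group. The share at the leading 3′ base was 45.4%, 27.6% and 58.7% in the same order. It ranged from 44.4% to 45.8% between RppH libraries, from 5.88% to 32.5% between Dcp libraries and from 41.4% to 100% between untreated libraries. The leading ends are mainly those of the RppH libraries, which hold 1195 of the counts, against 105 after Dcp and 75 without enzyme.

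Molecule length differed between the anticodons in each RppH library. In the RppH libraries the mean length was 82.6 ± 0.477 nt for GCC, 85.9 ± 0.635 nt for CCC and 88.9 ± 1.45 nt for TCC (SD, n = 3), in the same order in each library (exact sign-flip p = 0.25 for each pair, the smallest possible). Without the copy with the most counts of each anticodon, the means were 83.1 nt for GCC, 84.3 nt for CCC and 83.7 nt for TCC, with TCC below CCC. The gene tRNA1-GlyTCC of scaffold 137 thus carried the long TCC average. Over all glycine counts the mean length was 85.3 ± 0.445 nt after RppH, 84.2 ± 0.559 nt after Dcp and 83.8 ± 3.48 nt without enzyme. RppH exceeded Dcp in each RNA sample, by 1.05 nt on average (exact sign-flip p = 0.25, the smallest possible). The unpaired exact permutation p was 0.1 for RppH against Dcp and 0.7 for RppH against untreated, which overlapped.

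The shortest molecules, of 71 to 74 nt, occurred in GCC genes and had 0 of 490 CCC and 0 of 293 TCC counts after RppH, which allows shares of up to 0.612% and 1.02%. They made up 49 of 412 GCC counts after RppH (11.9%), 8 of 28 after Dcp (28.6%) and 17 of 30 without enzyme (56.7%). The 17 untreated counts came from 3 genes: tRNA10-GlyGCC on scaffold 47 with 3 and 7 counts of 72 nt in untreated libraries 1 and 2, and tRNA7-GlyGCC on scaffold 111 and tRNA1-GlyGCC on scaffold 82 with 4 and 3 counts of 73 nt in untreated library 1. Untreated library 3 had none. After RppH 11 GCC genes had such forms, among them tRNA7-GlyGCC of scaffold 111, tRNA1-GlyGCC of scaffold 196a and tRNA1-GlyGCC of scaffold 82. In tRNA1-GlyGCC on scaffold 82 the 73-nt form, 478019 to 478091 on the plus strand, was the leading form, with 10 of 29 counts. For TCC, forms of 90 to 96 nt made up 60.4% of counts after RppH, 34.2% after Dcp and 34.1% without enzyme.

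**Figure D4:**
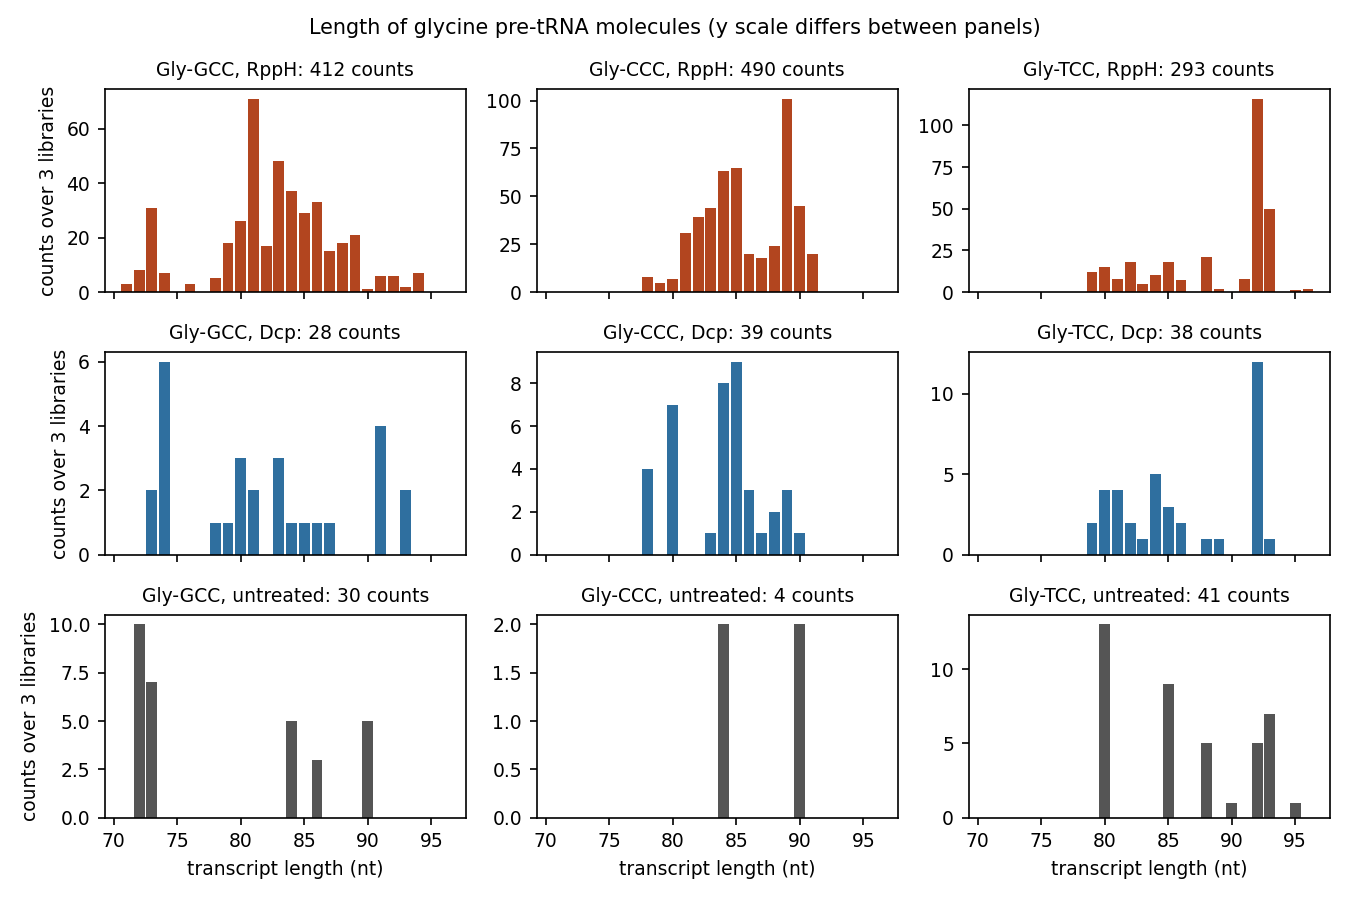
Counts of glycine pre-tRNA molecules by length in nt (x axis), summed over the 3 libraries of a treatment (y axes differ between panels), with RppH in the top row, Dcp in the middle row and untreated in the bottom row. Forms of 71 to 74 nt appear in the GCC column, with 49 of 412, 8 of 28 and 17 of 30 counts from top to bottom, and 92-nt forms lead the TCC panels after RppH and Dcp.

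Several CCC copies lay close together, and the genes below are named for their position. On scaffold 137, tRNA5-GlyCCC on the minus strand and tRNA2-GlyCCC on the plus strand began 1159 bases apart (962035 and 963194), pointing away from each other, and tRNA3-GlyCCC began a further 1535 bases on. On scaffold 2246, tRNA2-GlyCCC and tRNA1-GlyCCC began 1375 bases apart in the same arrangement (167 and 1542). Whether reads of these copies can be told apart was not tested. In TCC, tRNA2-GlyTCC and tRNA3-GlyTCC on scaffold 22b began 188 bases apart on the same strand. Scaffold 137 held the leading TCC gene and CCC genes, at a distance of 260756 bases from tRNA1-GlyTCC to tRNA5-GlyCCC. Scaffold 85 also held both anticodons, with 248214 bases from tRNA6-GlyCCC to tRNA4-GlyTCC.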

How the data were processed

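Full-length short RNAs were measured in 9 libraries. The authors deposited counts per genomic interval and library, which were whole numbers with no normalization, and TPM values per the file headers. TPM equalled count divided by 1 constant per library (largest relative deviation 3.1e-15), which gave the library totals. No source used here says what these totals count. Per the submitters' processing notes, the tools were cutadapt, Bowtie2, SAMtools and bedtools, with no version stated. No genome or sequence was used here.

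Intervals were summed per gene, and listed pre-tRNA intervals hold only what was seen. Those loci that reached 10 counts summed over libraries were fitted with edgeR 4.0.16 in R 4.3.3 (quasi-likelihood test, library totals as offsets, no normalization factor, all 9 libraries, two-sided, Benjamini-Hochberg adjustment at 0.05). SEs were back-calculated from the F statistic. Folds against 0 counts are lower bounds that take 3 counts per group as the floor. Anticodon ratios had 0.5 added to each count. Single values per library were compared by exact permutation tests, which ignored the pairing by RNA sample except where a sign-flip test is named.

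Same-numbered libraries share an RNA sample per the labels' protocols, so the numbers pair them. As a check, their deviations from the group means correlated from -0.27 to 0.20 over 354 loci. The pairing was used as an alternative fit.

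The members, the gene lists and the rule for named genes were chosen with earlier results of these data known. Named were, per anticodon, up to 8 tested genes with the highest mean RppH TPM, any gene called after Dcp, up to 5 tested genes not called in RppH against untreated, and the gene with the lowest mean TPM. Alternatives were TMM and median-of-ratios scaling, DESeq2 1.42.0, limma 3.58.1 on log2(TPM + 0.1, 1 or 10), other count minimums (1 and 30), the RNA sample as a block, leaving out RNA samples or libraries, and, added after seeing the data, leaving out the top gene of each anticodon or the alanine pre-tRNAs.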

Additional observations from a re-analysis of the deposited data

How the results depend on the processing

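Counts of called glycine genes moved with the processing, and the cause was not tested. Outside the main fit, the scalings and the block, no share over all loci is set beside them. Those counts therefore show nothing particular to glycine. In RppH against untreated (25 of 28), edgeR called 2 with TMM, 1 with median-of-ratios scaling, 11 of 13 with at least 30 counts and 13 with the RNA sample as a replicate block. DESeq2 called 15, and limma called 15 with a pseudocount of 1 and 11 with 10. Leaving out libraries or RNA samples gave 13 to 25. In Dcp against untreated (0), DESeq2 called 1, limma with a pseudocount of 0.1 called 1, and the 30-count minimum gave 3, and leave-outs gave 0 to 2. In RppH against Dcp (17), edgeR called 0 with TMM, 0 with median-of-ratios scaling, 10 with the 30-count minimum and 6 with the block. DESeq2 called 6 and limma with a pseudocount of 10 called 10, and leave-outs gave 0 to 18.

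Scaling turned the log2 sign of RppH against untreated, under TMM and median of ratios, for tRNA6-GlyTCC of scaffold 30 (-1.31 and -1.49), tRNA10-GlyGCC of scaffold 47 (-0.37 and -0.99), tRNA1-GlyGCC of scaffold 82 (-1.58 and -1.90) and tRNA4-GlyTCC of scaffold 85 (-1.69 and -2.23), and under median of ratios for tRNA6-GlyCCC of scaffold 53 (-0.35). It did so in Dcp against untreated for tRNA1-GlyTCC of scaffold 137 (-0.50 and -0.80). Both scalings were computed on the listed loci. For tRNA5-GlyGCC of scaffold 64, leave-outs gave -2.47 to 6.41 in RppH against Dcp. At both extremes 1 of the groups had no count, so these are fitted values and not measured folds.

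Leave-outs turned these differences between library means: GCC total, Dcp against untreated (-0.0987 to 0.242 TPM); TCC total, Dcp against untreated (-0.116 to 0.135 TPM); log2 GCC to CCC, RppH against Dcp (-0.61 to 1.72); log2 GCC to TCC, Dcp against untreated (-0.77 to 0.90); and mean length against untreated, for RppH (-0.189 to 2.96 nt) and Dcp (-1.11 to 1.85 nt). Without the top gene of each anticodon, CCC minus GCC was -1.46 TPM and CCC minus TCC was 0.55 nt in the RppH libraries. Without alanine pre-tRNAs, the glycine share in RppH minus untreated was -2.67 percentage points. With libraries weighted equally, 41.2% of counts lay at the most used 3′ end. The other 145 library-level, pair and end values under an alternative kept their direction. Among these, the differences paired by RNA sample equal the unpaired ones by construction, so their direction could not change and they show nothing. The untreated libraries held 75 counts over 49 genes.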
